A study of Mus musculus with 2 samples.

Results

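The granule nuclei described here were 329 nuclei of the adult mouse hippocampus, chosen by their own counts from 1248 nuclei that passed the same filter on depth. A nucleus was selected on at least 1 unique molecular identifier (UMI, the mark of a single captured RNA molecule) for at least 3 of the 6 genes Prox1, C1ql2, Trpc6, Dsp, Glis3 and Sema5a. It also had to hold at most 1 UMI summed over each of 4 barred pairs: Fibcd1 and Spink8 of CA1 pyramidal neurons, Gad1 and Gad2 of inhibitory neurons, Mog and Mag of oligodendrocytes, and Aqp4 and Gja1 of astrocytes. The filter asked for at least 2000 UMIs and under 5% of UMIs from mitochondrial genes. The granule nuclei made up 26.4% of the filtered nuclei, with an exact binomial interval of 23.9% to 28.9%. This and all other intervals given here are at 95% and cover counting error only.

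Slide-tags releases nuclei from a frozen tissue section after tagging them with spatial barcodes, and the tagged nuclei are then profiled by droplet RNA sequencing. The hippocampus came from a section of 20 µm from an adult male C57BL/6J mouse, and gave 1 library of 1661 barcodes. The series holds 1 other mouse library, of embryonic day 14 brain with 9037 barcodes, which enters no value below and shares 1 barcode with the adult library; background RNA was corrected in that library but not in the hippocampus. With 1 library there is no replicate and nuclei are not replicates of a condition, so no comparison was tested, and every fold below describes these nuclei alone.

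Granule neurons are the principal excitatory cells of the dentate gyrus. They receive input from the entorhinal cortex through the perforant path, and their axons, the mossy fibres, form large terminals on CA3 pyramidal neurons and hilar mossy cells. They fire sparsely, and the dentate gyrus is one of the few places where neurons are added in adult life. Prox1 is a homeobox factor that sets and maintains granule cell identity, and Ntf3 encodes neurotrophin-3, a growth factor of the nerve growth factor family. Their promoters are shown because Prox1 leads the rule and Ntf3 was among the genes with the largest folds. Each gene has 2 promoters in the table, and the one printed was chosen because it holds the motif below, which the other lacks. The sequences are from RefSeq on build GRCm38.p6, and run 5′ to 3′ along the gene's strand. Capitals mark the E-box CAGATG, a motif bound by NeuroD-type factors, on either strand.

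Prox1 (chr1:190170778-190171077, minus strand): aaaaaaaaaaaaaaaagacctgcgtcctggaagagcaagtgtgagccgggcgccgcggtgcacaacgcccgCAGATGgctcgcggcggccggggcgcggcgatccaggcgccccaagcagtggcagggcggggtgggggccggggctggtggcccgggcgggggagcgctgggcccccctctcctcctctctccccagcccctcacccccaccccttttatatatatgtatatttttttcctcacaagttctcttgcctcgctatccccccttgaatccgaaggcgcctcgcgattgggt
Ntf3 (chr6:126164911-126165210, minus strand): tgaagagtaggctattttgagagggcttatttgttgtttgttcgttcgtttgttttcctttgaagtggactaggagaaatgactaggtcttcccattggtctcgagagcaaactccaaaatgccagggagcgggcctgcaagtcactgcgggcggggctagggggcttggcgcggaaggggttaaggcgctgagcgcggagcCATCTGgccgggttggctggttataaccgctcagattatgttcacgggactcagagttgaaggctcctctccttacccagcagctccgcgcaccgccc

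CAGATG was found on either strand in 7 of 27 promoters (25.9%) matched for the 6 rule genes and the 15 leading genes given below, of which several have more than 1 promoter. Of all 32851 promoters in the same table, 17.2% held it. A match is a description of letters and not a binding site.

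The filter left out 408 barcodes for depth and 5 for mitochondrial content. Of the 1248 nuclei that remained, 460 had UMIs for 3 or more of the 6 genes, and 131 of those were barred by a pair. Gad1 and Gad2 barred 92 nuclei, 81 of them on that pair alone. Aqp4 and Gja1 barred 29, Mog and Mag barred 12, and Fibcd1 and Spink8 barred 10. The granule nuclei held between 2257 and 63451 UMIs, with a median of 10856 UMIs and a median of 3985 genes. Their median mitochondrial share was 0.0711%.

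The 919 other nuclei are 131 barred nuclei and 788 nuclei with under 3 of the 6 genes. To set the granule nuclei beside named cells, nuclei of the latter kind were called after a class where at least 3 of its 6 markers, and at least 2 more than of any other list, had a UMI. There were 162 CA1 pyramidal-like nuclei (median 19026.5 UMIs) and 27 CA3 pyramidal-like nuclei (median 18913 UMIs). The other neurons were 67 thalamic-like and 26 GABAergic-like nuclei, and the largest non-neuronal class was 189 oligodendrocyte-like nuclei, with a median of only 3351 UMIs. A further 151 nuclei entered no class. Levels below are in CPM, a gene's UMIs added up in a class for each 1000000 UMIs of that class, and are compared between classes for the same gene only.

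The 6 rule genes are given as a description, since they chose the nuclei. Prox1 (chr1:190118035-190170714, minus strand, build GRCm38 as are all gene positions here) stood at 339 CPM in granule nuclei (interval 321 to 357) against 0.959 in CA1 pyramidal-like nuclei. It was also at 283 in oligodendrocyte-like and 115 in thalamic-like nuclei. C1ql2 (chr1:120340582-120343174), a secreted C1q-like protein of mossy fibre synapses, was at 108 CPM (98.1 to 119) and at 0 in GABAergic-like and thalamic-like nuclei. Dsp (chr13:38151294-38198577), which encodes the desmosomal linker desmoplakin, was likewise at 108 (97.8 to 119). C1ql2 and Dsp had at most 3 UMIs in each of the 9 classes, whereas Prox1 was shared with glia.

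Trpc6 (chr9:8544142-8680741), a calcium-permeable channel, was at 335 CPM in granule nuclei, 104 in GABAergic-like and 35.8 in CA1 pyramidal-like nuclei. Glis3 (chr19:28258851-28680077), a zinc finger factor, was at 567 in granule nuclei and at 518 in astrocyte-like nuclei. Sema5a (chr15:32244810-32696341), a semaphorin guidance protein, was at 688 in granule nuclei and 328 in precursors of oligodendrocytes (OPC-like nuclei). Expressed as the share of the summed class levels that fell in granule nuclei, the order was Dsp 91.6%, C1ql2 80.4%, Trpc6 66.5%, Glis3 46.5%, Sema5a 40.7% and Prox1 38.8%. This share weighs small classes as much as large ones. The next class for C1ql2 was microglia-like, at 19.3 CPM, where all 18 nuclei together held 51879 UMIs. Single UMIs there weigh on its share and its place in the order.

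Per nucleus, Prox1 counts ran from 0 to 24 with a median of 3, and Sema5a counts from 0 to 44 with a median of 7. C1ql2 had a median of 1 and a highest count of 7. Of the granule nuclei, 94 had all 6 genes, 143 had 5, 55 had 4 and 37 had exactly 3. C1ql2 stood at 186 CPM in the 82 shallowest granule nuclei and at 77.0 in the 83 deepest. The share of nuclei with a C1ql2 UMI went the other way, at 59.8% and 69.9%. As C1ql2 helped to choose the nuclei, its change with depth cannot be told apart from the choice. Prox1 was at 300.2 and 337 in the same nuclei.

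The nuclei just inside and just outside the threshold differed in genes the rule did not use. Those with exactly 3 rule genes had a median of 3780 Lrrtm4 CPM, whereas those with 4 or 5 had 7811 and 7741. Stxbp6 was seen in 67.6% of the former and in 98.2% of nuclei with 4. Snhg11, a nuclear RNA abundant in other neurons, was at 1976 CPM with 3 rule genes and 655 with 4. The former level is a sum over 37 nuclei, of which 5 held 3 or more thalamic markers. In those 5, Snhg11 was at 7232, 6450, 3448, 0 and 0 CPM, so a few nuclei weigh on the sum. Just outside, 61 nuclei had 2 rule genes and passed the limit on all 4 pairs, and 44 of them had Prox1 with Sema5a. Of those 61, 14.8% had Stxbp6 and 35 held 3 or more thalamic markers. The plot of nuclei by number of rule genes shows both sides of the threshold.

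**Figure D1:**
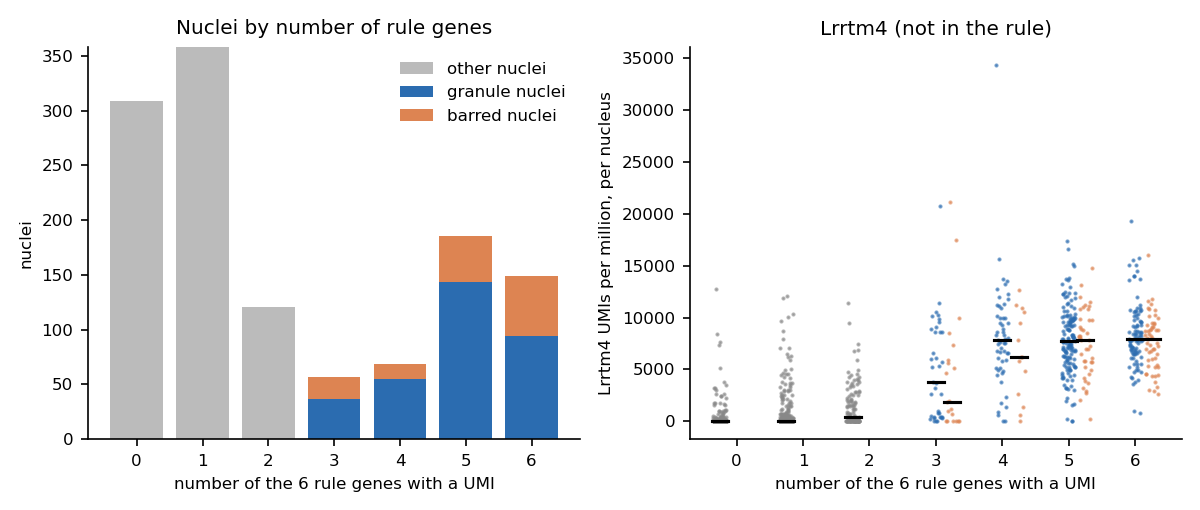
Left, number of nuclei (y axis) by how many of the 6 rule genes had a UMI (x axis), with granule nuclei in blue, barred nuclei in orange and other nuclei in grey. Right, Lrrtm4 CPM in each nucleus by the same number, 1 point a nucleus with medians as bars; granule nuclei with exactly 3 rule genes had a median of 3780, below the 7811 of those with 4.

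Markers of other cells were then read in granule nuclei. No granule nucleus had a UMI of Slc32a1, the vesicular transporter that defines inhibitory terminals, or of the oligodendrocyte gene Mog or the OPC gene Gpr17, though Mog was used by the rule and the bar on Gad1 and Gad2 bears on Slc32a1. Other markers were present at low levels: 93 granule nuclei had no UMI of the 6 oligodendrocyte markers, 202 had none of the GABAergic list and only 18 had none of the astrocyte list. Summed, the astrocyte markers stood at 809 CPM in granule nuclei against 4848 in astrocyte-like nuclei, the oligodendrocyte markers at 168 against 10317, and the GABAergic markers at 75.1 against 5679. The classes were picked on these same markers, and the barred pairs limit genes of the same cells in granule nuclei. The sums are thus a description and no check of the label. The part of these marker UMIs in the results was not tested. With the CA3 list set aside, 28 granule nuclei had 3 or more of the 6 markers of another class, 16 of them for microglia and 8 for the thalamus. Of the 28 nuclei, 10 had exactly 3 rule genes. The 8 nuclei with thalamic markers held 95.6% of all Tcf7l2 UMIs and 97.6% of all Slc17a6 UMIs in granule nuclei. Of the 6 thalamic markers Zfhx3 had the lowest such share, at 62.5%. These markers picked the 8 nuclei, so the shares are a description only. List counts against CA1 pyramidal-like nuclei that changed without the 28 nuclei are given with both values. The CA3 list was not specific, as 81 granule nuclei had 3 or more of its markers. Markers of the microglia list were also widespread at low levels, as only 83 granule nuclei had none of them. The 28 nuclei had a median of 13521 UMIs, above the 10856 of all granule nuclei.

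The first question was which genes set granule nuclei apart from the rest of the section. Of 16194 genes with at least 20 UMIs in both groups together, 660 (4.08%) were at least 2-fold higher in granule nuclei than in all other nuclei, and 3084 (19.0%) at least 2-fold lower. Genes and list members under that minimum are not counted here or below, so counts over a list leave out its lowest members. These folds are no test, since the rule used counts of the same nuclei. The 131 barred nuclei are part of the other nuclei and held 94.6% of their C1ql2 UMIs and 71.9% of their Lrrtm4 UMIs, so folds against all other nuclei are set beside those against single classes.

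The leading gene was Cdhr3, a cadherin-related receptor, at 14.6 CPM against 2.53, a fold of 5.77 (3.61 to 9.43). Onecut1, a cut homeobox factor, was 5.07-fold higher and had no UMI in any of the 9 other classes. Grm2, a presynaptic metabotropic glutamate receptor that inhibits release at mossy fibre terminals, was 4.73-fold higher (3.65 to 6.15). Slc29a4, a plasma membrane monoamine transporter, was 4.82-fold higher. Ntf3 was at 82.5 CPM against 19.2, a fold of 4.31 (3.61 to 5.15). Sv2c, a synaptic vesicle glycoprotein, was 3.78-fold higher, and Tafa2, a secreted chemokine-like protein, 3.71-fold.

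The other 8 of the 15 leading genes were Ccdc33, Arr3, Nek10, Stra6, Mfsd13b, Plk5, Vwa3a and Fam163b, with folds from 3.76 to 5.19. In the other direction the gene furthest below was Tmem200a, with 1 UMI in granule and 876 in all other nuclei, of which 709 were in CA1 pyramidal-like nuclei. Mag and Mog, also among the 15 furthest below, belong to the rule itself.

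The pattern most like C1ql2 was sought among 8134 genes as the largest share of the summed class levels in granule nuclei. Onecut1 reached 100% and Dsp 91.6%. Ccdc33 was at 91.5%, Slc29a4 at 91.1%, Plk5 at 87.7% and Ntf3 at 83.0%, and C1ql2 itself ranked 7. That rank is coarse, as single UMIs in the small microglia-like class weigh on it. In all, 41 genes had over 50% of their summed class level in granule nuclei and 4 had over 90%. Further down, at ranks 14, 17 and 21, were Ryr1 (69.1%), Htr4 (66.2%) and C1ql3 (64.4%).

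Granule cell genes outside the rule were all higher in granule nuclei than in CA1 pyramidal-like nuclei. Of 13158 genes measured against CA1 pyramidal-like nuclei, 1750 (13.3%) were at least 2-fold higher and 982 (7.46%) at least 2-fold lower, with a median over all genes of 0.13 on the log2 scale. All 12 genes of a list of known granule markers were in the higher group, with a median of 5.19 on the log2 scale. Against all other nuclei 10 of the 12 were, the exceptions being Igfbp5 and Neurod1. Against CA3 pyramidal-like nuclei 10 were, the exceptions being Neurod1 and Tanc1. Without the 28 nuclei with markers of another class the counts were again 12, 10 and 10. The list was chosen with earlier results of these data known, so these counts are a description and no test of the label.

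Stxbp6 (chr12:44852484-45074709), which encodes the SNARE regulator amisyn, ran from 0 to 55 UMIs per granule nucleus with a median of 9. In CA1 pyramidal-like nuclei the highest count was 1 and the median 0. Its levels were 916 and 3.20 CPM, a fold of 286 (156 to 598). At a depth thinned to 2000 UMIs it was seen in 76.9% of granule and 0.617% of CA1 pyramidal-like nuclei, and without thinning in 96.0% and 6.17%. Stxbp6 was also present in oligodendrocyte-like nuclei, at 396 CPM, and at 202 in GABAergic-like nuclei.

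Maml2, a coactivator of Notch signalling, was at 925 against 8.31 CPM, a fold of 111 (75.8 to 171). Dock10, a guanine nucleotide exchange factor, was at 726 against 19.8, a fold of 36.6 (28.5 to 47.9). Both were higher still in a glial class, Maml2 in astrocyte-like nuclei at 1143 and Dock10 in oligodendrocyte-like nuclei at 2338. Npnt, an extracellular matrix ligand, was at 66.1 CPM and Plekha2, a phosphoinositide adaptor, at 83.8. Tdo2, which degrades tryptophan, was low at 23.3 CPM and had 2 UMIs in CA1 pyramidal-like nuclei.

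Calb1, the calcium buffer calbindin, ran from 0 to 14 UMIs per granule nucleus. It was at 166 against 34.2 CPM in CA1 pyramidal-like nuclei, a fold of 4.85 (3.95 to 6.01), and had no UMI in CA3 pyramidal-like nuclei. Rfx3, a winged-helix factor of ciliary genes, ran from 0 to 95 UMIs with a median of 11, and was 7.54-fold higher than in CA1 pyramidal-like nuclei (6.90 to 8.26).

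**Figure D2:**
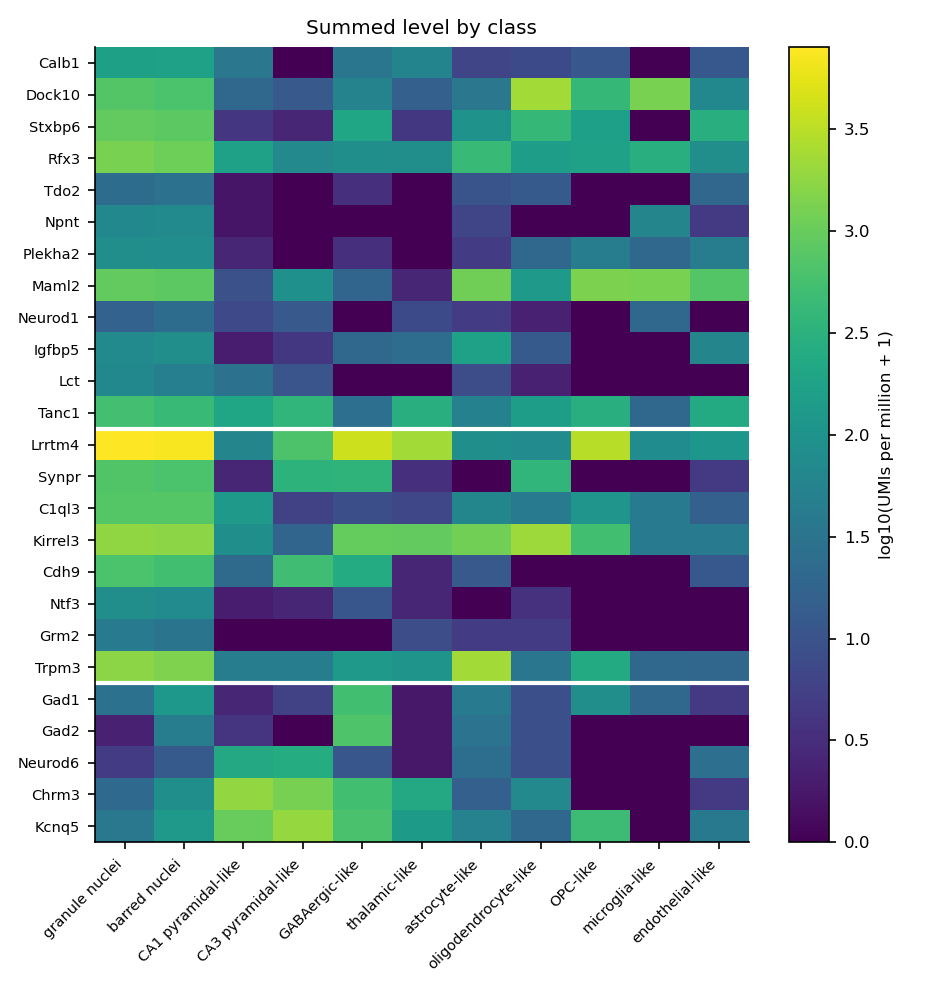
Level of each gene (rows) in each class (columns), as colour on the scale log10(CPM + 1); white lines separate granule markers outside the rule, synaptic and related genes, and genes of other classes. Granule and barred nuclei share the bright upper block, and in the middle block Lrrtm4 was at 8017 and 7281 CPM.

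Transcription factors were divided. Of 28 factors measured outside the rule, 7 were at least 2-fold higher than in CA1 pyramidal-like nuclei, 6 lower and 15 within 2-fold, with a median of 0.48 on the log2 scale. Mef2c, an activity-regulated MADS-box factor, was at 476 against 107 CPM, and Nfia and Zbtb20 were 2.24-fold and 2.02-fold higher. Neurod1, a factor of granule cell differentiation, was low in both classes at 16.1 and 6.39. Without the 28 nuclei 8 were higher and 7 lower. Neurod6, a factor of pyramidal neurons, was at 3.84 against 229 CPM, 59.5-fold lower (35.8 to 107), and Meis2 was 69.0-fold lower, whereas Bcl11a and Foxp1 were lower but well detected, at 202 and 321 CPM. Bcl11b, which is needed for mossy fibre development, was alike in both classes at 367 and 377, and low in CA3 pyramidal-like nuclei at 26.0.

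Genes of the mossy fibre synapse made up the next group. Of 23 measured outside the rule, 14 were at least 2-fold higher than in CA1 pyramidal-like nuclei and 1 was lower, with a median of 1.27 on the log2 scale. Without the 28 nuclei, 12 of 22 were higher. Against CA3 pyramidal-like nuclei, where 16.6% of 12175 genes were higher and 7.38% lower with a median of 0.19, 6 of 23 were higher and 2 lower.

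Lrrtm4 (chr6:80018877-80810143) encodes a postsynaptic adhesion protein that binds neurexins and heparan sulfate proteoglycans. Being postsynaptic, the protein is not one of the mossy fibre terminals that granule neurons form, though its gene is on this list. Lrrtm4 ran from 0 to 354 UMIs per granule nucleus with a median of 83, and from 0 to 83 with a median of 0 in CA1 pyramidal-like nuclei. Its level was 8017 against 59.1 CPM, a fold of 136 (117 to 157). The ranges overlap, as 6 granule nuclei had no Lrrtm4 UMI and 35 CA1 pyramidal-like nuclei had at least 1. It was at 658 in CA3 pyramidal-like, 2328 in thalamic-like and 4111 in GABAergic-like nuclei.

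Synpr (chr14:13284780-13616340), the vesicle protein synaptoporin of mossy fibre terminals, ran from 0 to 52 UMIs per granule nucleus with a median of 7. It had 5 UMIs in all CA1 pyramidal-like nuclei together, a fold of 439 (188 to 1354), but only 2.12-fold less in CA3 than in granule nuclei. C1ql3, a secreted partner of C1ql2, was at 738 CPM against 128 in CA1 and 4.88 in CA3 pyramidal-like nuclei. Slc30a3, which loads zinc into vesicles, was at 87.9 against 34.2 and 29.3. The level of Synpr was thus nearer to that of CA3 than of CA1, and the level of C1ql3 nearer to that of CA1.

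Adhesion genes that mark contacts of mossy fibres followed the same split. Kirrel3, an immunoglobulin adhesion protein, was at 1811 CPM against 88.2 in CA1 and 17.9 in CA3 pyramidal-like nuclei. Cdh9, a cadherin of the mossy fibre to CA3 contact, was at 632 against 21.1 in CA1 and 514 in CA3 pyramidal-like nuclei. Nrxn3, a presynaptic neurexin, was the member lower than in CA1, at 1397 against 6375, 4.56-fold lower (4.43 to 4.70). Slc17a6 counted as higher at 10.8 against 4.48 CPM with all granule nuclei, and its fold was 0.0650 without the 28. It is itself on the thalamic list that picked 8 of those 28 nuclei.

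**Figure D3:**
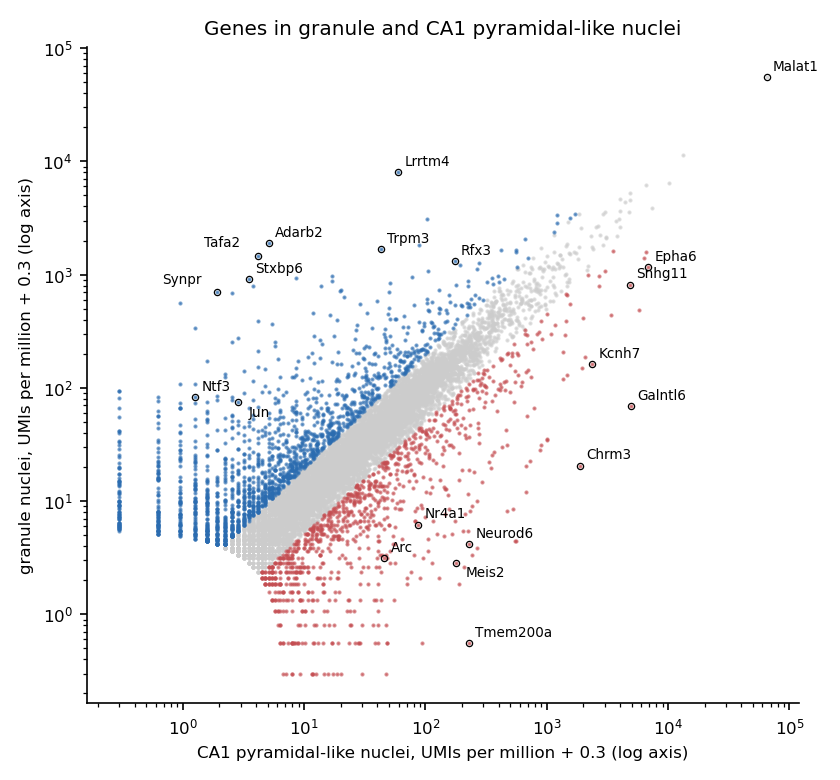
Level of each gene in granule nuclei (y axis) and CA1 pyramidal-like nuclei (x axis), in CPM plus 0.3 on log axes; blue genes were at least 2-fold higher, red at least 2-fold lower, and grey within 2-fold. Lrrtm4 stands at 8017 against 59.1 and Chrm3 at 20.2 against 1889.

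Of 18 AMPA and NMDA receptor genes and partners, 4 were at least 2-fold higher than in CA1 pyramidal-like nuclei (3 without the 28 nuclei) and none lower, with a median of -0.14. Gria2 was at 1765 against 1844 CPM and Grin1 at 398 against 480. Shisa9, an AMPA receptor auxiliary subunit that prolongs short-term depression, was at 713 against 19.5, a fold of 36.6 (28.4 to 47.9). Gsg1l and Cnih3, other AMPA receptor partners, were 6.34-fold and 5.06-fold higher. Grin3a, the fourth, was 2.30-fold higher, and 1.47-fold without the 28 nuclei.

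Of 14 kainate and metabotropic receptor genes, 8 were higher than in CA1 pyramidal-like nuclei and 1 lower, with a median of 1.24. Leaving out the 28 nuclei gave 7 of 13 higher. Grik2, the main kainate subunit of mossy fibre synapses, was at 1579 against 553 CPM. Grik4 was at 235 against 32.0 in CA1, and at 1362 in CA3 pyramidal-like nuclei. Grm2 was at 41.0 CPM with no UMI in CA1 pyramidal-like nuclei, at least 42.8-fold higher when 3 counts over the class are taken as the floor. Neto2, a kainate receptor auxiliary subunit, was 6.73-fold lower while its relative Neto1 was 6.72-fold higher.

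Of 16 genes of GABA receptors, their anchor gephyrin and chloride cotransporters, 2 were higher than in CA1 pyramidal-like nuclei, 2 lower and 12 within 2-fold, with a median of 0.32. Gabrd, the delta subunit of extrasynaptic receptors, was at 58.4 against 10.2 CPM, a fold of 5.71 (3.93 to 8.55). Its partner subunit Gabra4 was 2.20-fold higher. Gabrg3 was at 131 against 575 and Gabra3 at 3.59 against 33.6.

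Potassium channel genes went both ways, with 8 of 28 higher than in CA1 pyramidal-like nuclei and 5 lower, and a median of 0.21. Leaving out the 28 nuclei gave 7 of 27 higher and a median of 0.0047. Kcnd3, an A-type channel, was at 398 against 18.2 CPM, a fold of 21.8 (16.8 to 29.0). Kcnh7, an ERG-type channel, ran from 0 to 52 UMIs per granule nucleus with a median of 1, and from 0 to 158 with a median of 44 in CA1 pyramidal-like nuclei, 14.7-fold lower. Kcnq5, an M-current channel, was at 35.1 against 996, 28.4-fold lower (23.9 to 33.9). Kcnc2 was 2.64-fold lower with all granule nuclei and at a fold of 0.00832 without the 28 nuclei, and 5 nuclei held 96.6% of its UMIs.

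Of 20 genes of sodium, calcium and other cation channels 3 were higher and 4 lower, with a median of -0.30, and Cacna1c, Cacna1h and Scn3a were 4.63-fold, 3.03-fold and 3.53-fold higher. Trpm3, a steroid- and heat-sensitive channel, was 39.2-fold higher than in CA1 pyramidal-like nuclei (33.0 to 46.9), but was higher again in astrocyte-like nuclei, at 2339 against 1669 CPM. Of 8 TRP genes outside the rule 2 were higher and 3 lower (1 and 4 of 7 without the 28 nuclei), with a median of -0.58, and Trpc4 and Trpc5 were 2.89-fold and 2.37-fold lower.

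**Figure D4:**
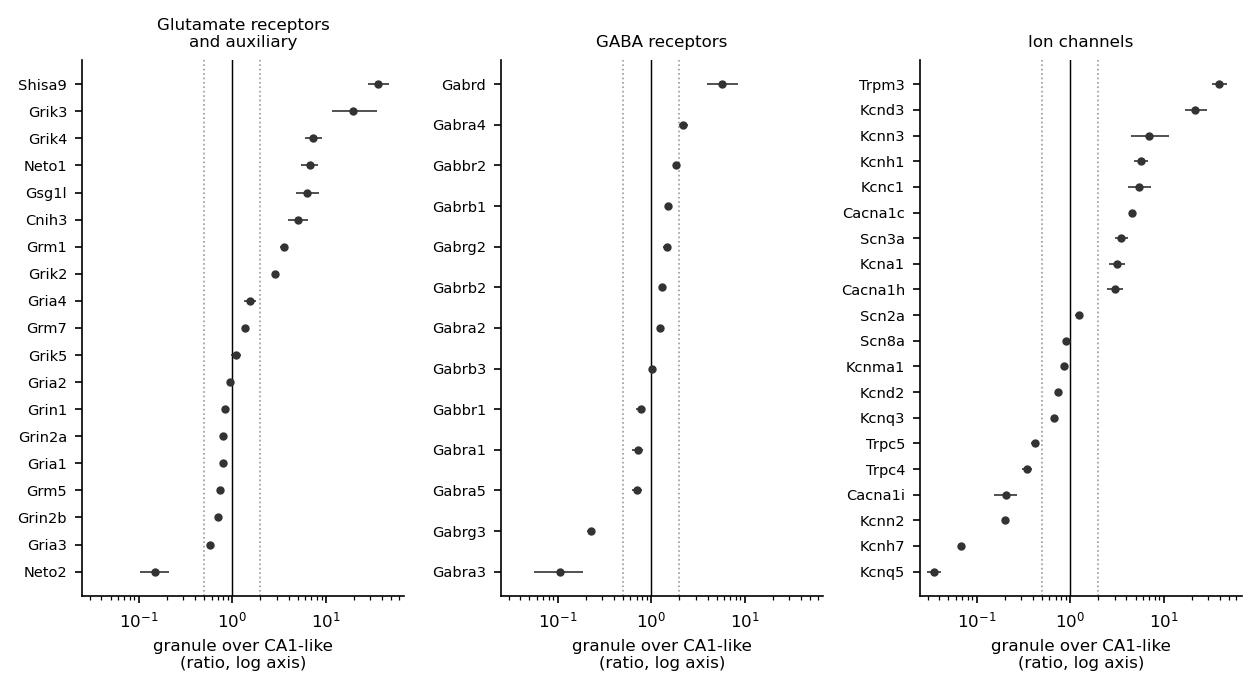
Ratio of the level in granule over CA1 pyramidal-like nuclei for receptor and channel genes, on a log axis, with bars for the exact counting interval, a solid line at equal levels and dotted lines at 2-fold either way. Of the genes plotted, Trpm3 stands at 39.2 and Kcnq5 is 28.4-fold lower.

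Calcium handling genes were also mixed, with 5 of 17 higher than in CA1 pyramidal-like nuclei and 4 lower, and a median of -0.26. With the 28 nuclei left out, 4 of 16 were higher. Ryr1, a ryanodine receptor best known from skeletal muscle, was at 46.6 against 11.8 CPM, a fold of 3.94 (2.76 to 5.78). Ryr3 was at 294 against 1413 and the sodium-calcium exchanger Slc8a1 at 149 against 1941, 13.0-fold lower, while its relative Slc8a2 was 2.44-fold higher. Calb2, the marker of immature granule cells and mossy cells, had 23 UMIs, of which 14 were in 1 nucleus.

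Of 27 axon guidance genes outside the rule, 10 were higher than in CA1 pyramidal-like nuclei and 6 lower, with a median of 0.16, and without the 28 nuclei 9 were higher. Unc5d, a netrin receptor, was at 362 against 5.12 CPM, a fold of 70.8 (43.5 to 124). Epha6, an ephrin receptor, was at 1162 against 6888, and Sema3e was 14.1-fold lower. Against CA3 pyramidal-like nuclei 4 of 26 were higher and 12 lower. Of 23 adhesion genes 11 were higher than in CA1 pyramidal-like nuclei and 6 lower, with a median of 0.83 (10 of 22 higher without the 28 nuclei), among them Cntn5 at 848 against 51.2 and Cdh10 at 41.8 against 458. Dsg2, a desmosomal cadherin that partners the rule gene Dsp, was at 14.6 against 0.639, and Nectin3, an adhesion protein of CA3, was at 6.92 against 34.8 in CA1 and 374 in CA3 pyramidal-like nuclei.

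Chrm3 (chr13:9875486-10360847), the muscarinic receptor M3, had a median of 0 and a highest count of 18 UMIs in granule nuclei, and a median of 34 and a highest of 101 in CA1 pyramidal-like nuclei, 93.3-fold lower (74.7 to 118). Its relative Chrm1 was alike, at 104 and 102. Htr4, a serotonin receptor that raises cyclic AMP, was at 322 against 94.0, a fold of 3.42 (3.01 to 3.90), and Htr2a had 2 UMIs in granule nuclei. Nr3c2 and Nr3c1, the mineralocorticoid and glucocorticoid receptors, were within 2-fold. Of 12 genes measured on a list of steroid, serotonin, muscarinic and other modulator receptors, 2 were higher than in CA1 pyramidal-like nuclei and 6 lower, with a median of -1.03. Cnr1, the cannabinoid receptor, was among the 6. Among the 301 granule nuclei left without the 28, 1 of 11 was higher and 6 were lower, with a median of -3.01. The second higher gene, Htr7, was at 0.91-fold without the 28 nuclei.

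Of 15 neuropeptide and trophic factor genes, Ntf3, Pdyn and Erbb4 were higher than in CA1 pyramidal-like nuclei and Cck, Fgf1 and Vgf lower, with a median of 0.54. Erbb4 had 48 UMIs in granule nuclei and 15 without the 28, when it no longer reached the minimum, and Fgf14 was then at 2.02-fold. The list's median was then 0.32. Ntf3 had 322 UMIs in granule and 3 in CA1 pyramidal-like nuclei, a ratio of 86.0 (29.2 to 419). Pdyn, the precursor of dynorphin, had 37 UMIs against 2. Bdnf was at 90.7 against 55.0 and thus within 2-fold. Of 8 nuclear long noncoding RNAs 3 were lower than in CA1 pyramidal-like nuclei, 1 was higher and 4 were within 2-fold, with a median of -0.59. Snhg11 was at 817 against 4816 CPM, Meg3 at 1595 against 6618 and Rian at 194 against 574. Neat1 was the higher one, with 20 UMIs against 2, and without the 28 nuclei it did not reach the minimum.

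Of 8 C1q-like and cerebellin ligands and receptors measured outside the rule, C1ql3 and Grik2 were higher than in CA1 pyramidal-like nuclei and Adgrb3 and Nrxn3 lower, with a median of 0.07. Adgrb3, an adhesion receptor for C1q-like proteins, was at 1631 against 3481 CPM.

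The 10 largest folds over CA1 pyramidal-like nuclei included those of Adarb2, Tafa2 and Slc4a4. Adarb2, a brain protein related to RNA-editing enzymes, ran from 0 to 148 UMIs per granule nucleus, at 1910 against 4.80 CPM (398-fold, 241 to 712), and was higher in GABAergic-like (5355) and thalamic-like nuclei (3936). Tafa2 was at 1465 against 3.84 CPM, a fold of 382 (218 to 740), and at 423 in CA3 pyramidal-like nuclei. Gprc5b and Arsj were also among the 10, each with 1 UMI in CA1 pyramidal-like nuclei. Slc4a4, a sodium bicarbonate cotransporter, was 227-fold higher than in CA1 pyramidal-like nuclei and higher again in astrocyte-like nuclei. In the other direction Galntl6, a glycosyltransferase-like protein, was at 68.4 against 4966 CPM, 72.6-fold lower (64.3 to 82.2). Tmem200a had 1 UMI in granule nuclei, a ratio of 885 (158 to 34985) the other way.

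The dentate gyrus is known for sparse firing, and genes switched on within minutes of activity were read next. Of 20 immediate early genes measured, 13 were at least 2-fold lower than in CA1 pyramidal-like nuclei and 2 higher, with a median of -1.78 on the log2 scale. Among the 301 granule nuclei left without the 28, 12 of 19 were lower. Against all other nuclei 12 of 21 were lower. Some other neurons differed from this, as 8 of 14 were higher and 1 lower against GABAergic-like nuclei. Of all 12156 genes measured there, 16.6% were higher and 12.9% lower. Against thalamic-like nuclei 7 of 18 were higher and 4 lower, beside 17.6% and 13.7% of all 12658 genes. Nr4a1 (chr15:101254269-101274795), an orphan nuclear receptor, was at 5.89 against 86.6 CPM in CA1 pyramidal-like nuclei, 14.7-fold lower (9.59 to 23.6). Arc, a synaptic capsid-like protein, was 16.1-fold lower and Npas4, a neuronal activity factor, 9.75-fold. The exceptions were Jun, at 74.6 against 2.56, and Btg2, at 29.2 against 5.75.

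The promoters of 3 of these genes are printed as examples of the group. Capitals mark TGACG, the shared part of the cyclic AMP response element TGACGTCA that CREB binds, and CGTCA, the same motif on the other strand.

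Nr4a1 (chr15:101266596-101266895, plus strand): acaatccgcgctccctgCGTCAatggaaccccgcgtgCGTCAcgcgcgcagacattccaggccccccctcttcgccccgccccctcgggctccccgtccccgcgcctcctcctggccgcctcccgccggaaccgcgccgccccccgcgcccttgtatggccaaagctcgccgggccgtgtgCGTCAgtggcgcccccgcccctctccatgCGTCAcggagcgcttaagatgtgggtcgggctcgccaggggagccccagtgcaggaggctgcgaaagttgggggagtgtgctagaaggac
Npas4 (chr19:4989922-4990221, minus strand): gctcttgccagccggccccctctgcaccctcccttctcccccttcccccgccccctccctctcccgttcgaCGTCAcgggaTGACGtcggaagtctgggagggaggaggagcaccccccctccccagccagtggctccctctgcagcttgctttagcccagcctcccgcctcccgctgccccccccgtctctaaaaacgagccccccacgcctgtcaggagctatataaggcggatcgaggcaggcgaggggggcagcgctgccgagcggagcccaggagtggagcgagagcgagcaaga
Fos (chr12:85473640-85473939, plus strand): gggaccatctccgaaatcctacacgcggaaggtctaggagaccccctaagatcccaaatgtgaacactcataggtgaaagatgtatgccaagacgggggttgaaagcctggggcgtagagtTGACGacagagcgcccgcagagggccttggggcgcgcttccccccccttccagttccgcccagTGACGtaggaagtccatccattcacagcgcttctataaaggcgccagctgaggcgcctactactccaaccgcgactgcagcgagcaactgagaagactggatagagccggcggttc

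TGACG was present in all 8 promoters matched among 11 genes of this group, and in 20.8% of all promoters. The full TGACGTCA was in 0 of the 8 and in 1.79% of all promoters. TGACG was present in 14.8% of the 27 promoters of the leading and rule genes.

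Summed over those 11 genes (Fos, Fosb, Junb, Egr1, Egr3, Egr4, Arc, Npas4, Nr4a1, Nr4a2 and Nr4a3), granule nuclei had 83.8 CPM (75.0 to 93.4) and CA1 pyramidal-like nuclei 451 (428 to 476). CA3 pyramidal-like nuclei had 486, whereas thalamic-like nuclei had 98.3 and GABAergic-like nuclei 65.6. No UMI of any of the 11 genes was found in 195 granule nuclei (59.3%) and in 9.88% of CA1 pyramidal-like nuclei. Among nuclei of at least 10000 UMIs, each thinned to 10000, 40.9% of 186 granule nuclei had at least 1 of the genes (33.7% to 48.3%) and 84.4% of 147 CA1 pyramidal-like nuclei did (77.5% to 89.8%). Of 50 thalamic-like nuclei 48.0% did (33.7% to 62.6%). That thinning left out 143 granule, 15 CA1 pyramidal-like and 17 thalamic-like nuclei.

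The signal was concentrated in few nuclei, and not in the granule class alone. In granule nuclei 10 nuclei held 44.3% of these UMIs. The same number held 31.0% in CA1 pyramidal-like, 83.3% in CA3 pyramidal-like and 47.9% in thalamic-like nuclei, classes of different size. One CA3 pyramidal-like nucleus had 104 of the 299 UMIs of its class. A single granule nucleus had all 11 genes, with 62 UMIs, and another had 7 genes with 39 UMIs. Without the first the summed level was 68.4 CPM, and without both 59.3. The first had exactly 3 rule genes, and the second was the deepest granule nucleus, at 63451 UMIs. Without the 28 nuclei the level was 53.2. Fosb turned on these nuclei: it was higher than in all other nuclei with them and at a fold of 0.495 without the 28.

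**Figure D5:**
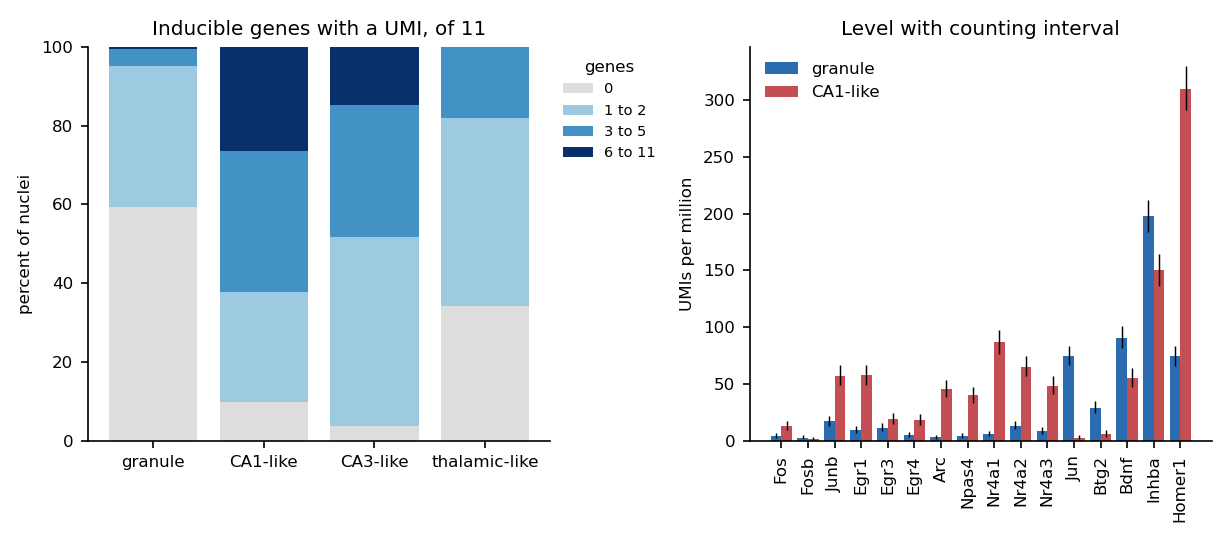
Left, percent of nuclei in each class by how many of 11 inducible genes had a UMI, not corrected for depth; 59.3% of granule nuclei had none. Right, level in CPM with exact counting intervals for granule (blue) and CA1 pyramidal-like nuclei (red), where Nr4a1 stood at 5.89 and 86.6 and Jun at 74.6 and 2.56.

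Genes of adult neurogenesis were read in granule nuclei, which were chosen by granule genes and a bar on astrocyte genes. Cells of this lineage that fail that rule were thus left out, and their number cannot be read here. Of 16 genes of the neurogenic lineage 7 reached 20 UMIs with CA1 pyramidal-like nuclei, and 4 of those were higher and none lower, with a median of 2.82. With the 28 nuclei left out 3 of 6 were higher with a median of 1.85. Calb2, which had 14 of its 23 UMIs in 1 nucleus, then did not reach the minimum. Of 6 genes of immature granule cells (Dcx, Sox11, Igfbpl1, Calb2, Draxin and Eomes), 205 granule nuclei had none and 8 had 3, and no nucleus had more. Dcx, a microtubule protein of migrating neurons, was at 18.2 CPM against 11.5 in CA1 pyramidal-like nuclei. Sox11, a factor of young neurons, was at 36.1 against 5.12, a fold of 7.06 (4.20 to 12.7). Mki67 (chr7:135689784-135716361), the proliferation antigen, was at 54.8 CPM (47.7 to 62.7) in 132 granule nuclei and at 6.07 in CA1 pyramidal-like nuclei, while Top2a, another gene of dividing cells, had 2 UMIs in all granule nuclei.

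Gad1, which makes GABA from glutamate, was used by the rule, so its level was read among the 410 nuclei that the rule would keep if the pair of Gad1 and Gad2 were not used. There Gad1 was in 191 nuclei (46.6%, 41.7% to 51.5%) at 62.9 CPM (56.5 to 69.9). Of those nuclei, 178 had no Gad2 UMI. Gad2, the other GABA-making enzyme, was in 18 nuclei, and Slc32a1 in 4. In CA1 pyramidal-like nuclei, which were deeper, Gad1 was in 3 of 162. In GABAergic-like nuclei Gad1, Gad2 and Slc32a1 were at 535, 679 and 106 CPM.

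The 92 nuclei barred by the pair were of 2 kinds by their Gad2 counts. In 73 of them there was no UMI of Gad2 or Slc32a1, and C1ql2 was at 125, Stxbp6 at 963 and Lrrtm4 at 8126 CPM, beside the 108, 916 and 8017 of granule nuclei. The other 19 had Gad2, with Erbb4 at 2787 and Npy at 199 CPM, both genes of interneurons. Erbb4 was not limited to them, as it was at 2192 CPM in oligodendrocyte-like nuclei. These 19 also had C1ql2 at 89.1, Stxbp6 at 593 and Lrrtm4 at 7167 CPM. In GABAergic-like nuclei Stxbp6 was at 202, Lrrtm4 at 4111 and C1ql2 at 0, which allows a level of up to 7.57 CPM. C1ql2 is a rule gene that helped to choose all barred nuclei, and GABAergic-like nuclei were drawn from those with too few rule genes. The C1ql2 levels of both kinds of barred nuclei are thus a description and no check of their identity. The 329 granule nuclei hold at most 1 UMI of the pair by the rule, and 110 of them had a Gad1 UMI.

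Variation among granule nuclei was measured as the variance of a gene over the Poisson expectation for the depth of each nucleus, for 5782 genes with at least 100 UMIs. The median ratio was 1.22, and 670 genes (11.6%) had a ratio of 2 or more. The most variable were Cntnap2 at 148, Kcnc2 at 88.6, Ntm, Tox, Cntn4, Malat1, Nxph1, Galntl6, Robo1 and Tcf7l2. Except for Malat1 these had 42.9% or more of their UMIs in 5 nuclei, and each of the 10 stood higher in another class than in granule nuclei. Without the 28 nuclei 415 of 5320 genes passed and Cntnap2 dropped to 4.28. Of the 10 genes Malat1 alone then stayed among the 10 most variable, at 35.1.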

How the data were processed

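One library of adult hippocampus nuclei was analysed. The deposited values are UMI counts per gene and barcode, which the authors made with Cell Ranger 6.1.2 (from the file header) on mm10 with intronic reads, with no normalization. The spatial positions and the embryonic matrix were not analysed here.

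Members, gene lists and comparisons were chosen with earlier results of these data known, and the rule for classes was set after the data were seen. Levels are UMIs summed over nuclei per 1000000, with exact Poisson intervals, shares have Clopper-Pearson intervals and ratios exact conditional intervals. A gene counted as higher or lower at 2-fold with at least 20 UMIs over both groups. A count of 0 was set to a floor of 3 counts over the group. Shares across depths were read after thinning each nucleus to 2000 or 10000 UMIs without replacement. Named genes were the rule genes and barred genes, 12 further granule markers, the 15 with the largest folds either way over all other nuclei and 10 either way over CA1 pyramidal-like nuclei (at least 50 UMIs in the higher group, leaving out mitochondrial genes and those with Gm or Rik names), members of the lists past 2-fold or described in the text, the 10 most variable genes and those most like C1ql2.

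Scrublet scores (scanpy 1.11.5) marked the 22 nuclei expected as doublets, 3 of them granule nuclei and 12 of them barred nuclei. All were kept. Computations used Python 3.11.15, numpy 2.4.6, scipy 1.17.1 and pandas 2.3.3, and were tested on simulated data. Gene positions are from GENCODE vM21. Alternatives covered depth, mitochondrial share, the number of rule genes, the barred pairs, doublets, scaling, gene minimum and fold. A few genes are not reported here.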

Additional observations from a re-analysis of the deposited data

How the results depend on the processing

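No paired analysis was possible because there is 1 library and no comparison was tested. With 1 animal and 1 section the spread between animals is unknown, and depth limits low genes. Requiring no UMI of any barred pair left 183 granule nuclei. The number of genes measured changes with the minimum of UMIs. Against all other nuclei, 1145 of 16194 genes were higher by the mean over nuclei and 1324 of 19696 with no minimum. With a minimum of 100 UMIs, 370 of 11895 were higher and 1608 lower. At 4-fold, 52 of 16194 were higher and 1536 lower. Against CA1 pyramidal-like nuclei, 2881 of 16545 genes were higher and 1560 lower with no minimum. With a minimum of 100, 830 of 8527 were higher and 534 lower, and at 4-fold 770 and 423 of 13158. Against CA3 pyramidal-like nuclei, 2692 of 15974 genes were lower with no minimum. With a minimum of 100, 958 of 6816 were higher and 345 lower, and at 4-fold 698 and 275 of 12175. Variable genes numbered 167 of 2869 in nuclei thinned to 5000 UMIs. They numbered 415 of 5320 without the 28 nuclei with markers of another class, an alternative chosen after seeing the data. Median-of-ratios scaling left the CA1 median at 0.04 on the log2 scale. With 2 of the 6 genes as the threshold, folds over all other nuclei turned for Cdh18 (1.01), Chrm2 (1.62), Cntn4 (1.32), Cntn6 (2.25), Drd2 (1.89), Gria4 (1.21), Grm4 (2.44), Hcn4 (2.39), Htr7 (2.07), Kcnc2 (1.69), Robo1 (1.65), Slc17a6 (2.94), Tcf7l2 (1.77), Tenm3 (1.39) and Trpm2 (1.45), and over CA1 pyramidal-like nuclei for Dpp10 (2.33), Kcnc2 (1.87), Sox5 (1.78) and Tenm3 (1.30). With no UMI of the pairs Gad1 was at 0 in granule nuclei by the rule. Its value of 0.964 over CA1 thus rests on the floor of 3 counts and is no measured fold. Vip over all other nuclei was 1.90 with no bar. By the mean over nuclei Fosb was 0.999 over all other nuclei and Slc17a6 0.814 over CA1. Without the 28 nuclei Fosb was 0.495 over all other nuclei, and Cntn6 0.364, Slc17a6 0.0650 and Tox 0.376 over CA1. Without the deepest nucleus Fosb was 0.887. The cause of these changes was not tested.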
